A study of Mus musculus with 8 samples.

Results

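The liver disposes of the nitrogen and the carbon of amino acids. In hepatocytes, aminotransferases and glutamate dehydrogenase move amino groups into ammonia and aspartate, and the urea cycle, which begins in mitochondria with carbamoyl phosphate and continues in the cytosol, turns both into urea. The carbon skeletons are broken down by separate routes for histidine, serine, tyrosine, tryptophan (the kynurenine route), the branched-chain amino acids, lysine and proline. The 38 genes described here encode enzymes of these routes and 1 mitochondrial carrier, and were found by symbol among the 25239 gene symbols counted in every liver. They fall into 9 pathway groups. Of the 38, 37 had enough reads to be tested, and the exception was Ass1.

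Bulk RNA-Seq of whole liver was available from 4 control mice and 4 Smo-KO mice. All were adult male Smo flox/flox mice on a C57Bl6/J background, kept for 6 weeks on CDA-HFD, a high-fat diet that induces steatohepatitis. The paper names the diet choline-deficient and amino acid-restricted, while its methods describe it as choline-deficient and L-amino acid-defined. At 1 week before sacrifice, control mice received AAV8-TBG-Luciferase and Smo-KO mice AAV8-TBG-Cre Recombinase. AAV8-TBG is a viral vector with a promoter active in hepatocytes, so that Cre is directed to hepatocytes, where it removes the floxed part of Smo, the signal transducer of the Hedgehog pathway. Other liver cells keep Smo, and whole liver includes their RNA. Both groups thus share the floxed allele, the diet and a vector, while the loss of Smo and the presence of Cre cannot be told apart. Between 8203299 and 9999732 reads per liver fell on genes, and levels are given as CPM, the share of a gene in the normalised library on a per-million scale. The hepatocyte markers were abundant in every liver. Alb, which encodes albumin, had from 14262 to 17680 CPM, and the 7 hepatocyte markers summed to 43543 ± 2739 CPM in control and 41823 ± 1331 CPM in Smo-KO livers (SD, n = 4). In whole liver, fewer cells of a type and less RNA per cell cannot be told apart.

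Smo itself measured 8.17, 8.49, 8.74 and 8.21 CPM across the control mice, given in the order 1 to 4 here and throughout. The Smo-KO mice, in the same order, measured 5.67, 3.93, 4.27 and 4.37 CPM. Every Smo-KO liver lay below every control liver, and the mean was 54.3% of control. For Smo the log2 fold change was -0.88 (standard error 0.158, edgeR adjusted p 0.0957). The adjusted p was 0.00613 in DESeq2's Wald test, 0.0385 in edgeR with no filter on low counts and 0.0266 in edgeR without Smo-KO mouse 1.

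The promoters of 4 members are shown because their genes had the smallest unadjusted p among those with a RefSeq promoter entry (Cps1 and Kynu have none in the table). Agxt, Gpt2 and Nags had lower and Prodh higher mean levels in Smo-KO livers. Each is the 250 bases before the transcript start that the RefSeq promoter table uses (GRCm38.p6), read 5′ to 3′ on the gene's strand. For Prodh this start lies inside the gene's full annotated extent, so part of the stretch shown overlaps the gene. Agxt lies on the plus strand of chromosome 1 (chr1:93134990-93135239), Gpt2 on the plus strand of chromosome 8 (chr8:85492326-85492575), Nags on the plus strand of chromosome 11 (chr11:102145263-102145512) and Prodh on the minus strand of chromosome 16 (chr16:18089191-18089440). Capitals mark matches to the motifs searched.
Agxt: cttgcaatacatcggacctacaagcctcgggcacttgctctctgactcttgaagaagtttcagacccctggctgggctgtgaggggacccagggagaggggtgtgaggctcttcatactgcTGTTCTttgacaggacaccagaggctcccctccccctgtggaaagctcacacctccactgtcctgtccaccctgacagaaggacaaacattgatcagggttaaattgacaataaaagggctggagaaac
Gpt2: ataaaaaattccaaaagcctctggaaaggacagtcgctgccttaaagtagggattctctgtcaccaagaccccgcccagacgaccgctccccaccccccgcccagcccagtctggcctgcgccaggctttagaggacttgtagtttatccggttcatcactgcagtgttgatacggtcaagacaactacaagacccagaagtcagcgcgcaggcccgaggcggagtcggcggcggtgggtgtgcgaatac
Nags: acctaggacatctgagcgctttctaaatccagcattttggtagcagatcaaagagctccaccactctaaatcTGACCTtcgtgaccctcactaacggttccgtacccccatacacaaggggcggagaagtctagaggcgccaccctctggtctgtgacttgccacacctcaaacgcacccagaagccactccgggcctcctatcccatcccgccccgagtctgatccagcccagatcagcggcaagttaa
Prodh: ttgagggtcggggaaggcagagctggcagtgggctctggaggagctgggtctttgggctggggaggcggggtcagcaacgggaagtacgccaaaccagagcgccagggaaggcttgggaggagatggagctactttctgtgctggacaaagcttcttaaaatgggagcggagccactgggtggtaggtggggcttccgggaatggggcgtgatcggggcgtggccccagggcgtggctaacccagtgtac
The motifs were searched on both strands, as TGACG (the core of a cyclic AMP response element), TTGCNNAA (C/EBP), AGGTCA (a nuclear receptor repeat unit) and TGTTCT (1 arm of a glucocorticoid receptor site). The Agxt promoter held TGTTCT at 129 bases before the start, and the Nags promoter held AGGTCA, on the opposite strand, at 178 bases. Gpt2 and Prodh held none of the 4. Of all 32851 promoters of this length in the table, 17.8% held TGACG, 9.56% TTGCNNAA, 14.0% AGGTCA and 16.1% TGTTCT. Promoter entries were found for 29 of the 38 members (32 promoters), and of these 32 promoters 2, 4, 10 and 3 held the respective motif. A match describes the letters only.

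Per kilobase of exon, the tested members spanned a wide range of levels. Hpd, the dioxygenase that follows the first transamination of tyrosine, had a mean in control livers of 391 ± 88.7 CPM per kb (SD, n = 4), above Glud1, the mitochondrial glutamate dehydrogenase, with 313 ± 22.6 CPM per kb, and Fah, the last enzyme of tyrosine breakdown, with 258 ± 49.3 CPM per kb. Bckdha, a subunit of the branched-chain dehydrogenase, had 223 ± 33.0 CPM per kb. The means of Hpd and Glud1 differed by less than the SD of Hpd, those of Fah and Bckdha by less than the SD of Fah, and those of Glud1 and Fah by more than either SD. The lowest was Mccc1, a subunit of the leucine-pathway enzyme methylcrotonyl-CoA carboxylase, with 4.89 ± 0.341 CPM per kb. Exon length joins the exons of all annotated transcripts of a gene, and was 10952 bases for Mccc1 and 2802 bases for Mccc2. In CPM, without the length, the control means of Mccc1 and Mccc2 were 53.6 and 53.4, so the rank of Mccc1 depends on the length used. Ass1, which encodes argininosuccinate synthase, the urea cycle enzyme between Otc and Asl, was listed at 0 reads in 7 livers and at 1 read in Smo-KO mouse 3. Otc and Asl, its neighbours in the cycle, had from 255 to 475 CPM in the 8 livers, so the Ass1 entry is given as listed and not as a level.

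**Figure D1:**
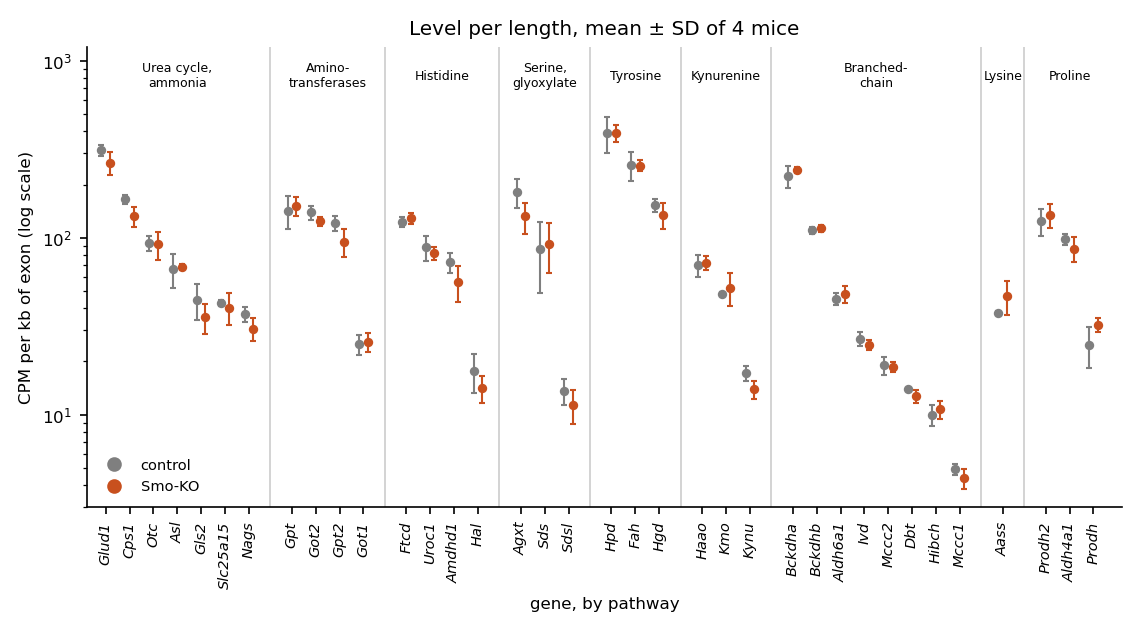
Level of 36 of the 37 tested members in CPM per kb of exon (log scale), by pathway; points are means and bars SD of 4 control (grey) and 4 Smo-KO (orange) mice. Levels ran from Mccc1 at 4.89 to Hpd at 391 CPM per kb in control livers. The group means lay close together beside this range, and the rank of Mccc1 depends on the exon length used.

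Between the groups, no member passed an adjusted p of 0.05, and neither did any gene of the 12977 tested (0.00%, by the quasi-likelihood F-test of edgeR). DESeq2's Wald test called 163 of the 11967 genes to which it gave an adjusted p (1.36%) and none of the members. At an unadjusted p under 0.05, 8 of the 37 members were found (21.6%), against 13.8% of all genes tested (1797 genes). Of these 8 members, 6 were lower in Smo-KO livers (Cps1, Nags, Gpt2, Amdhd1, Agxt and Kynu; 7.15% of all genes were lower by this criterion) and 2 were higher (Aass and Prodh; 6.70% of all genes). In 5 members, all lower in Smo-KO livers, the values of the groups did not overlap (Cps1, Got2, Amdhd1, Agxt and Kynu), against 7.37% of all genes in either direction and 4.34% in this one. No member lay wholly higher in Smo-KO livers, against 3.03% of all genes, but 2 did so without control mouse 1 (Prodh and Bckdha; 5.89% of all genes in that fit), 2 without Smo-KO mouse 1 (8.06%) and 1 without control mouse 3 (4.27%). The median log2 fold change of the 37 members was -0.04, with 22 below 0, and that of all genes was 0.00, with 50.1% below 0. Without control mouse 1 the median of the members was 0.00.

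**Figure D2:**
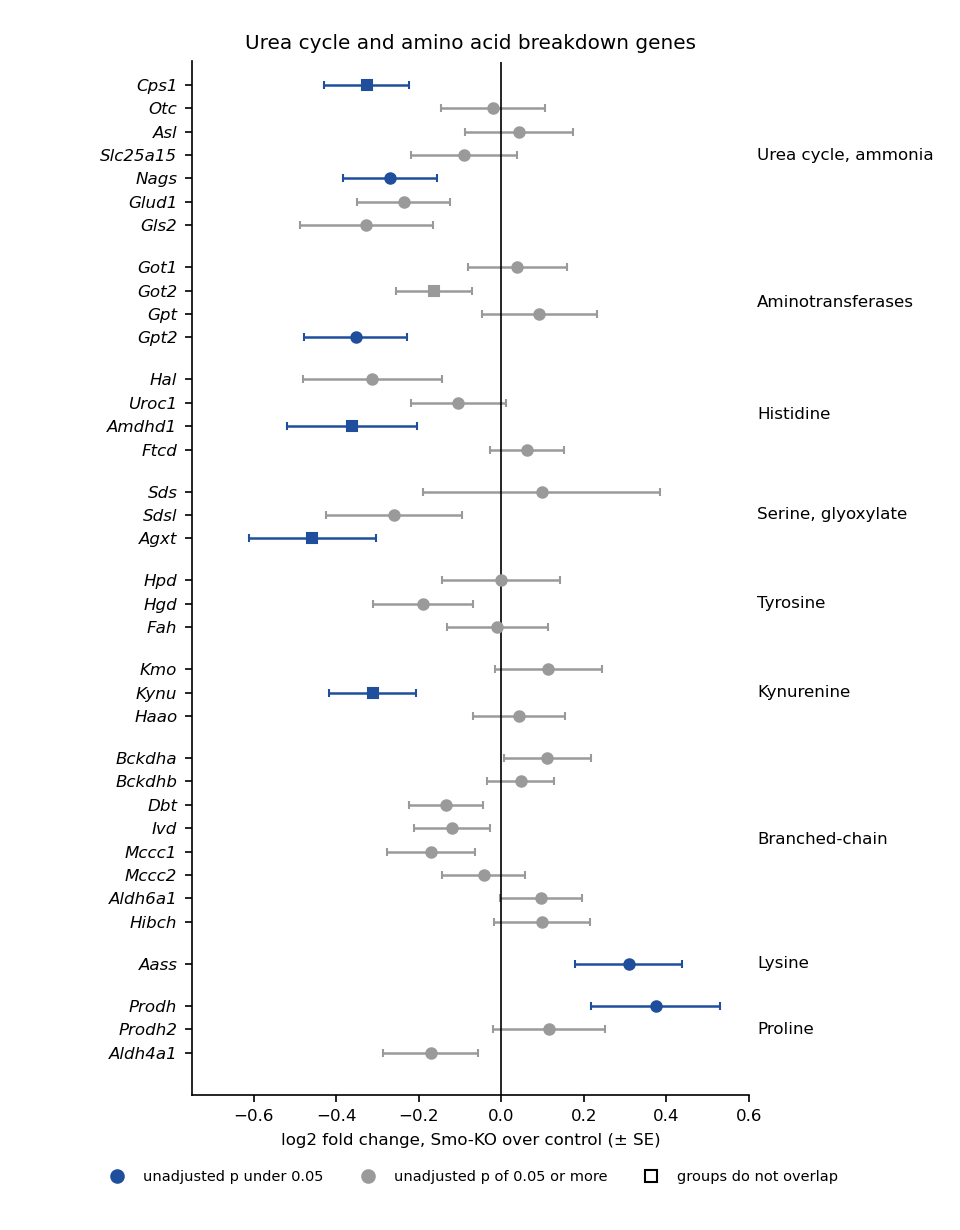
Log2 fold change (Smo-KO over control) and standard error of 36 of the 37 tested members by pathway. Blue marks an unadjusted p under 0.05 and squares mark groups that do not overlap; 6 blue points lie left of 0 and 2, Aass and Prodh, lie right of it.

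In the urea cycle and ammonia group (9 genes, 8 tested), 6 had lower and 2 higher mean levels in Smo-KO livers, with a median log2 fold change of -0.16. Cps1, carbamoyl phosphate synthetase, which commits ammonia to the cycle, lies at chr1:67122426-67231267 (GRCm38.p6). Control mice had 954, 846, 923 and 952 CPM, and Smo-KO mice had 754, 828, 603 and 746 CPM. All Smo-KO livers were below all control livers, with Smo-KO mouse 3 the lowest. The mean was 79.8% of control (log2 fold change -0.33, standard error 0.103, unadjusted p 0.00777, edgeR adjusted p 0.218).
Nags makes N-acetylglutamate, the activator that the Cps1 enzyme requires. Its values were 120, 97.8, 99.1 and 103 CPM in control mice and 100, 90.1, 69.9 and 87.5 CPM in Smo-KO mice. The groups overlapped through Smo-KO mouse 1, which lay above 2 control mice. On the log2 scale, the fold change was -0.27 (standard error 0.114, edgeR adjusted p 0.318) and -0.18 without Smo-KO mouse 3, and 15.6% of the exon bases of Nags overlap a gene on the other strand, whose reads cannot be separated without strand information.
Otc and Asl, at later steps of the cycle, had smaller differences. Otc, which makes citrulline, averaged 394 ± 38.9 CPM in control and 389 ± 71.3 CPM in Smo-KO livers. Asl, which releases arginine, averaged 321 ± 70.9 and 330 ± 11.8 CPM. The log2 fold change was -0.02 for Otc (standard error 0.127, unadjusted p 0.877 in edgeR's test) and 0.04 for Asl (standard error 0.131, unadjusted p 0.751), so a difference of that size was not detectable with 4 mice per group.
On the side that supplies ammonia, Glud1 had 1285, 1237, 1456 and 1296 CPM in control mice and 1186, 1098, 899 and 1294 CPM in Smo-KO mice. Only Smo-KO mouse 4 reached the control range. Gls2, the liver glutaminase, averaged 154 ± 35.2 CPM in control and 123 ± 23.4 CPM in Smo-KO livers. Slc25a15, the ornithine carrier of the inner membrane, averaged 241 ± 10.6 CPM in control and 226 ± 46.7 CPM in Smo-KO livers. Unadjusted p was 0.057 for Glud1 and 0.0636 for Gls2 in edgeR's test. For Gls2 it was under 0.05 with no filter, and with the replicate number as a block. It was also under 0.05 for Gls2 without control mouse 2, control mouse 3 or Smo-KO mouse 4. For Glud1 it was so with no filter and without Smo-KO mouse 4. Under these settings from 10.2% to 16.3% of all genes were under 0.05, and under the other alternatives neither Gls2 nor Glud1 was.

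The aminotransferases come as cytosolic and mitochondrial pairs. Gpt2, the mitochondrial alanine aminotransferase (chr8:85492576-85528902), had 739, 589, 696 and 713 CPM in control mice and 667, 524, 434 and 516 CPM in Smo-KO mice. Of the Smo-KO livers, that of mouse 1 lay within the control range and the other 3 lay below it. The log2 fold change was -0.35 (standard error 0.125, unadjusted p 0.0147, edgeR adjusted p 0.252). Gpt, the cytosolic enzyme, had 538, 364, 344 and 425 CPM in control mice and 462, 437, 375 and 507 CPM in Smo-KO mice, which lay within the control range.
The ratio of Gpt2 to Gpt within each liver does not depend on library scaling. On the log2 scale it was 0.73 ± 0.23 in control and 0.26 ± 0.208 in Smo-KO livers (SD, n = 4), a difference of -0.47 with a standard error of 0.155 (two-sided p = 0.0571 by exact permutation, adjusted p 0.171 over 4 isoenzyme pairs). The ratios of Got2 to Got1, Sdsl to Sds and Prodh2 to Prodh differed by -0.20, -0.42 and -0.29, each with an adjusted p of 0.171 in the same exact test. These pairs were chosen after values had been seen.
Got2, the mitochondrial aspartate aminotransferase, had 761, 623, 662 and 636 CPM in control mice and 617, 608, 546 and 622 CPM in Smo-KO mice. The groups did not overlap, although control mouse 2 and Smo-KO mouse 4 were almost level, and the separation was lost with RLE scaling. Its log2 fold change was -0.16 (standard error 0.0922, unadjusted p 0.0985 in edgeR's test) and -0.10 without control mouse 1. Got1, the cytosolic enzyme, averaged 63.6 ± 8.46 CPM in control and 65.3 ± 8.16 CPM in Smo-KO livers.

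Histidine is broken down in 4 steps by Hal, Uroc1, Amdhd1 and Ftcd. Amdhd1, the imidazolonepropionase of the third step, had 209, 163, 172 and 160 CPM in control mice and 146, 156, 89.5 and 156 CPM in Smo-KO mice. Smo-KO mouse 3 was far below the others, and the groups did not overlap. Its log2 fold change was -0.36 (standard error 0.158, edgeR adjusted p 0.334) and -0.21 without Smo-KO mouse 3. Hal, the ammonia lyase that opens the route, averaged 97.5 ± 24.2 CPM in control and 78.4 ± 13.9 CPM in Smo-KO livers. Its unadjusted p was 0.0851 in edgeR's test, and under 0.05 without control mouse 2 or 3 and with the replicate number as a block. Uroc1, urocanase, averaged 306 ± 49.1 and 285 ± 23.9 CPM. Ftcd, which passes the last carbon to folate and had the highest level per length of the 4, had 427, 386, 366 and 394 CPM in control mice and 377, 401, 414 and 451 CPM in Smo-KO mice, with overlap.

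Among the serine and glyoxylate genes, Agxt encodes the aminotransferase that turns glyoxylate into glycine, and lies at chr1:93135240-93145421. It had 389, 282, 290 and 267 CPM in control mice and 253, 225, 160 and 257 CPM in Smo-KO mice. The groups did not overlap, control mouse 1 was the highest and Smo-KO mouse 3 the lowest. The mean was 72.8% of control (log2 fold change -0.46, standard error 0.154, unadjusted p 0.011, edgeR adjusted p 0.24), with log2 fold changes from -0.53 to -0.32 when each mouse was left out. Sds, serine dehydratase, ranged from 83.0 to 204 CPM in control and from 93.5 to 206 CPM in Smo-KO livers. Sdsl, a related dehydratase, averaged 20.3 ± 3.44 CPM in control and 16.9 ± 3.65 CPM in Smo-KO livers, with an unadjusted p under 0.05 without control mouse 2 or Smo-KO mouse 4. The control SD of Sds was the largest of the 37 tested members relative to the mean, and 29.6% of the exon bases of Sds overlap genes on the other strand.

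In the aromatic routes, 1 of 6 genes had an unadjusted p under 0.05 (16.7%, against 13.8% of all genes tested). This was Kynu, kynureninase (chr2:43555258-43683048), with 119, 97.8, 109 and 97.6 CPM in control mice and 80.4, 91.9, 73.5 and 95.3 CPM in Smo-KO mice. The groups did not overlap, but the nearest values were 97.6 and 95.3 CPM. On the log2 scale, the fold change was -0.31 (standard error 0.105, edgeR adjusted p 0.24). Kmo and Haao encode other enzymes of the route. Kmo averaged 228 ± 4.57 CPM in control and 247 ± 51.9 CPM in Smo-KO livers, with an unadjusted p under 0.05 without Smo-KO mouse 1. Haao had 383, 319, 271 and 338 CPM in control mice and 302, 349, 325 and 373 CPM in Smo-KO mice, inside the control range. In tyrosine breakdown no gene had an unadjusted p under 0.05, and Hgd averaged 400 ± 35.2 CPM in control and 350 ± 58.8 CPM in Smo-KO livers. Fah averaged 573 ± 109 and 569 ± 40.2 CPM. For Hpd the values were 1100, 806, 660 and 762 CPM in control mice and 802, 944, 719 and 859 CPM in Smo-KO mice, within the control range, and the sign of its fold change turned with the scaling.

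None of the 8 branched-chain genes had an unadjusted p under 0.05, against 13.8% of all genes tested. Their log2 fold changes ran from -0.17 to 0.11, with 4 in each direction and a median of 0.00. Bckdha, a subunit of the dehydrogenase complex that commits these amino acids to breakdown, had 510, 384, 372 and 428 CPM in control mice and 464, 455, 435 and 475 CPM in Smo-KO mice. These lay inside the control range through control mouse 1 and above the other control mice. Without control mouse 1, Bckdha was higher in Smo-KO livers at an unadjusted p under 0.05, and without Smo-KO mouse 2 Mccc1 was lower. In the annotation, 61.7% of the exon bases of Bckdha overlap B3gnt8 on the other strand, so the level of Bckdha is uncertain. Dbt, another subunit of the complex, averaged 46.5 ± 0.979 CPM in control and 42.4 ± 3.72 CPM in Smo-KO livers. The other branched-chain members, Bckdhb, Ivd, Mccc1, Mccc2, Aldh6a1 and Hibch, had mean levels from 53.4 to 261 CPM in control livers, and the groups of these and of Dbt overlapped.

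Aass and Prodh were the members with higher levels in Smo-KO livers at an unadjusted p under 0.05. No member was higher by this criterion without control mouse 3 or without Smo-KO mouse 2. Aass, the bifunctional enzyme that starts lysine breakdown, had 144, 149, 141 and 139 CPM in control mice and 141, 229, 185 and 157 CPM in Smo-KO mice. The control values were close together, Smo-KO mouse 1 lay among them and the other 3 lay above. The log2 fold change was 0.31 (standard error 0.13, edgeR adjusted p 0.318) and 0.16 without Smo-KO mouse 2.
Prodh, the proline dehydrogenase of mitochondria, had 256, 180, 134 and 203 CPM in control mice and 241, 274, 223 and 264 CPM in Smo-KO mice. The groups overlapped through control mouse 1. Its log2 fold change was 0.37 (standard error 0.157, edgeR adjusted p 0.316) and ran from 0.24 (without control mouse 3) to 0.54 (without control mouse 1). Prodh2, which acts on hydroxyproline and had the highest level per length of the 3 proline genes, had 378, 310, 250 and 283 CPM in control mice and 288, 315, 313 and 406 CPM in Smo-KO mice, with overlap. Aldh4a1, the dehydrogenase of the next step, averaged 480 ± 33.3 and 426 ± 66.5 CPM, and 32.5% of its exon bases overlap another gene.

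**Figure D3:**
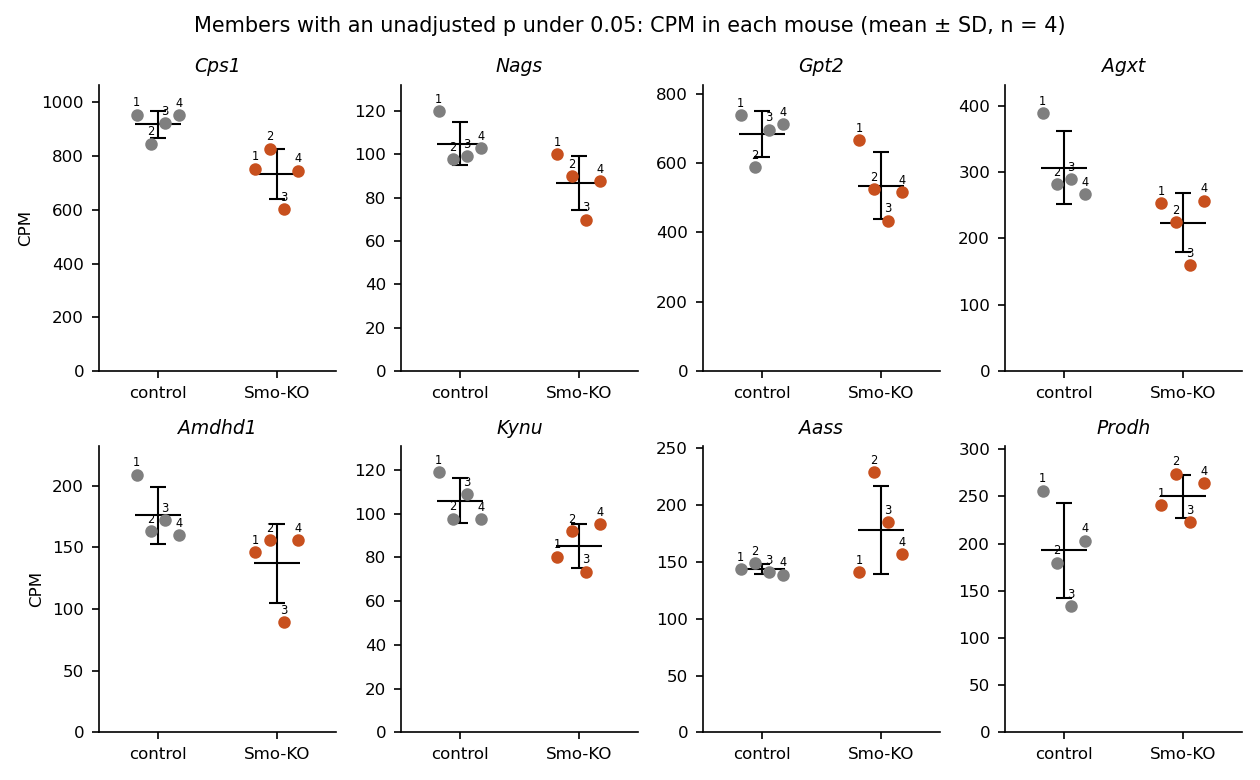
CPM of the 8 members with an unadjusted p under 0.05 in each mouse (numbers are mouse numbers; bars are mean ± SD, n = 4; axes start at 0). Smo-KO mouse 3 is the lowest point for Cps1, Nags, Gpt2, Agxt, Amdhd1 and Kynu, and control mouse 1 lies within the Smo-KO range for Prodh.

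Single mice stood apart across many members. Among control livers, mouse 1 had the highest level of 26 of the 37 members (70.3%), while it had the highest level of 31.0% of all genes tested. Among Smo-KO livers, mouse 3 had the lowest level of 24 members (64.9%), against 26.1% of all genes, and the highest of none. Smo-KO mouse 4 stood on the other side, with the highest level of 20 members (54.1%, against 22.6% of all genes) and the lowest of none. Smo-KO mouse 3 also had the fewest reads on genes, 8203299. Summed over the 38 members, control livers had 13719, 11392, 11313 and 12112 CPM and Smo-KO livers had 11327, 12038, 10136 and 12242 CPM, so the group sums overlapped. The 86 other genes of these routes, described below, summed to 18519, 15787, 14586 and 16538 CPM in control livers. In Smo-KO livers they summed to 16191, 17665, 14423 and 16553 CPM. Control mouse 1 was again the highest and Smo-KO mouse 3 the lowest, so this order was not particular to the members. Without Smo-KO mouse 3, 5 members had an unadjusted p under 0.05 (Cps1, Gpt2, Agxt, Kynu and Prodh), and 9.5% of all genes did. Cps1, Gpt2, Agxt and Kynu stayed under 0.05 in each of the 8 fits that left out 1 mouse, while Amdhd1 did so in 5, Nags in 4, Prodh in 4 and Aass in 3. These members had been picked by the same criterion with all mice. In single fits of this kind, from 9.5% to 17.8% of all genes were under 0.05. The share of all genes that stayed so in every fit is not given here, so these counts have no comparison. Control mouse 1 also had the highest sum of hepatocyte markers, 47533 CPM, against 41513 to 43082 CPM in the other control mice. Without control mouse 1, 6 members had an unadjusted p under 0.05 (4 lower and 2 higher), against 14.9% of all genes.

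**Figure D4:**
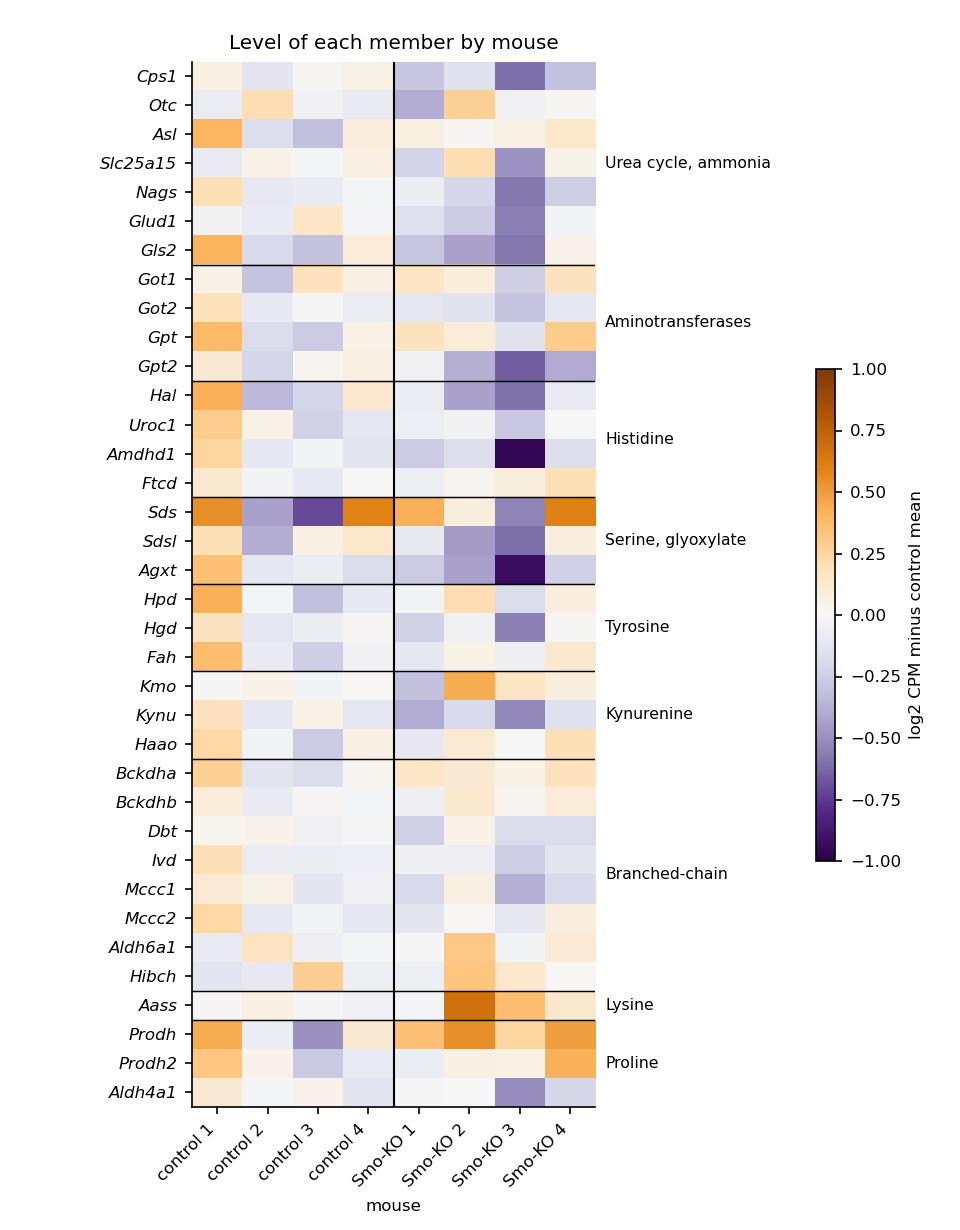
Level of 36 of the 37 tested members in each mouse as log2 CPM minus the control mean (orange higher, purple lower). The column of control mouse 1 is mostly orange (highest control value in 26 of 37 members) and that of Smo-KO mouse 3 mostly purple (lowest Smo-KO value in 24).

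Other genes of these routes, 86 in 8 lists, were read from the same fit, and 81 were tested. By edgeR, 0 reached an adjusted p of 0.05. Of the 81, 2 lay wholly higher in Smo-KO livers and 2 wholly lower, against 3.03% and 4.34% of all genes. Of the 2 wholly lower, 1 was in the serine list. At an unadjusted p under 0.05, the Smo-KO mean was above control for 7 and below it for 5 (14.8%, against 13.8% of all genes), with a median log2 fold change of -0.02. The counts in the lists that follow stand against 6.70% of all genes higher and 7.15% lower by this criterion. Of the 7 other urea and ammonia genes tested, 2 were higher at this level. These were Slc25a13, the aspartate-glutamate carrier that feeds the cycle (log2 fold change 0.19, standard error 0.0824), and Rhbg, an ammonia transporter (0.25, standard error 0.115, and 0.15 without Smo-KO mouse 2), which shares 61.4% of its exon bases with another annotated gene.
Among 14 aromatic genes tested, 2 were lower. Ddc, which decarboxylates aromatic amino acids, had 60.4, 63.4, 83.3 and 71.8 CPM in control mice and 61.4, 30.9, 15.0 and 44.1 CPM in Smo-KO mice. Its Smo-KO values spread widely, and mouse 1 lay with the controls (log2 fold change -0.88, standard error 0.292). Qprt, which leads from the kynurenine route to NAD, had a log2 fold change of -0.31 (standard error 0.118), with groups that did not overlap. Of 17 other branched-chain genes, Slc25a44, the mitochondrial carrier of these amino acids, and Pcca were lower and Ppm1k, the phosphatase that activates the dehydrogenase complex, was higher. On the log2 scale, the fold change was -0.34 for Slc25a44, -0.22 for Pcca and 0.41 for Ppm1k.
In the proline, serine and lysine lists (22 genes tested: 7, 9 and 6) none had an unadjusted p under 0.05. The smallest p-values there were those of Oat (log2 fold change -0.32) and Aldh18a1 (-0.31), Phgdh (-0.41) and Psph (-0.23), and Aldh7a1 (-0.22) and Hykk (0.20). Single mice moved several of these. The log2 fold change was -0.04 for Aldh18a1 without control mouse 3 and -0.52 without Smo-KO mouse 1. It ran from -0.48 without Smo-KO mouse 2 to -0.17 without Smo-KO mouse 3 for Oat. It was -0.26 for Phgdh without control mouse 4 and -0.14 for Psph without Smo-KO mouse 3.

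Of 12 amino acid transporters, 2 were higher and 1 lower at an unadjusted p under 0.05. Slc1a4, a carrier of alanine, serine and cysteine, had 29.6, 44.6, 53.1 and 44.7 CPM in control mice and 32.6, 26.5, 19.3 and 26.7 CPM in Smo-KO mice. Control mouse 1 was as low as the Smo-KO livers and the other control mice lay above all of them. The log2 fold change was -0.71 (standard error 0.178, edgeR adjusted p 0.151, 0.0221 in DESeq2's Wald test). Slc1a2, a glutamate transporter of pericentral hepatocytes, had 142, 135, 72.7 and 137 CPM in control mice and 154, 223, 188 and 146 CPM in Smo-KO mice, without overlap (log2 fold change 0.55, standard error 0.192). The third was Slc43a1, with a log2 fold change of 0.54 (standard error 0.211).
Among 9 regulators of amino acid metabolism, 2 were higher. Creb3l3, a transcription factor of hepatocytes that responds to fasting, had 422, 392, 368 and 380 CPM in control mice and 443, 535, 558 and 471 CPM in Smo-KO mice. All Smo-KO livers were above all control livers (log2 fold change 0.36, standard error 0.096, edgeR adjusted p 0.163, 0.0292 in DESeq2's Wald test). Gcgr, the glucagon receptor, had a log2 fold change of 0.27 (standard error 0.11), and its groups overlapped through control mouse 1.

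**Figure D5:**
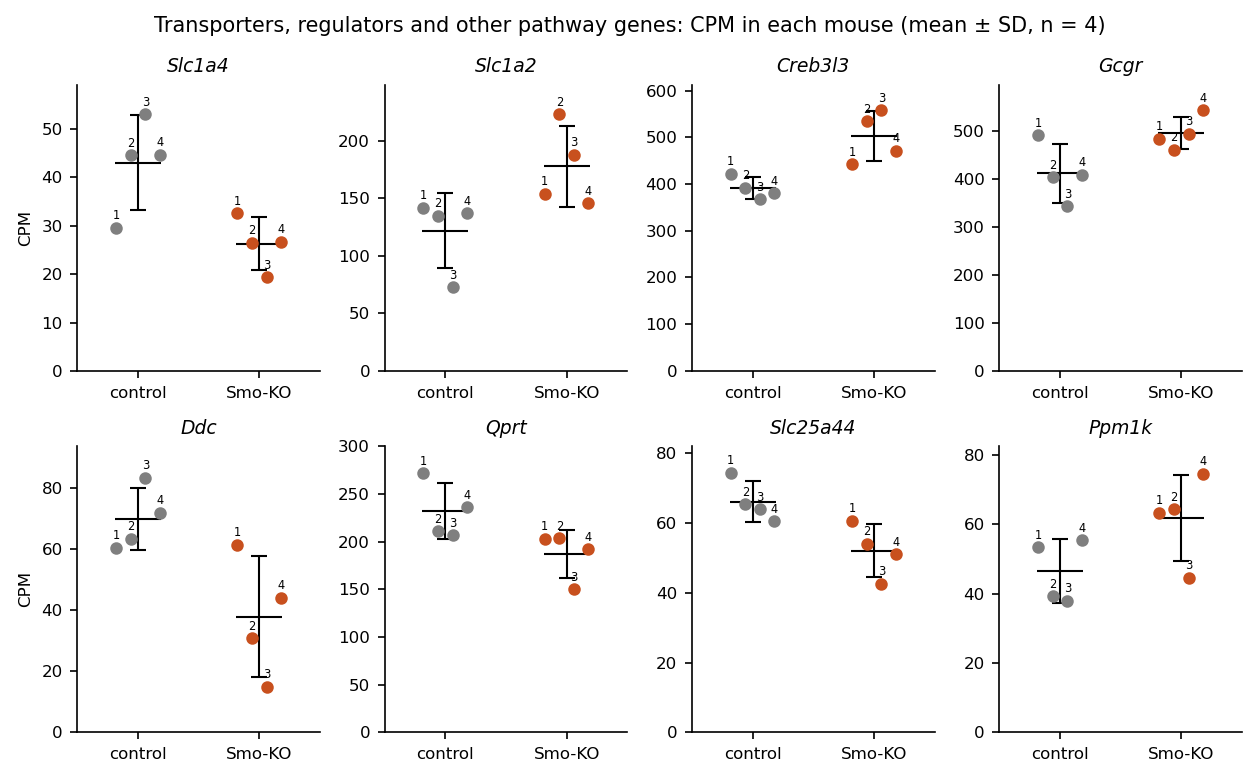
CPM in each mouse of 8 transporters, regulators and other pathway genes (numbers are mouse numbers; bars are mean ± SD, n = 4; axes start at 0). All Smo-KO points of Creb3l3 and Slc1a2 lie above the control points, and those of Qprt lie below.

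Levels of other cell types and of liver zones were read beside these results. Counts at an unadjusted p under 0.05 in these lists stand against 6.70% of all genes higher and 7.15% lower. Of 10 lymphocyte markers, 9 were tested and 6 were lower at an unadjusted p under 0.05 (Cd3e, Cd3g, Cd8a, Cd4, Nkg7 and Il2rb). These 6 mark T and NK cells. The other 3 tested mark B cells, with log2 fold changes of -0.09 for Cd79a, 0.17 for Cd79b and -0.22 for Ms4a1 and unadjusted p from 0.533 to 0.743 in edgeR's test. The list summed to 58.2, 62.3, 53.7 and 72.2 CPM in control mice and 30.8, 26.0, 43.8 and 42.4 CPM in Smo-KO mice, without overlap, with Nkg7 the most abundant (14.5 ± 3.09 and 7.59 ± 2.44 CPM). Reads on some of these markers were few, from 8 to 46 per liver for Cd4 and from 17 to 112 for Cd3e. Among 7 macrophage markers 1 was higher, Trem2 (log2 fold change 0.75, standard error 0.126, edgeR adjusted p 0.0957), while the sum was 845 ± 121 CPM in control and 854 ± 142 CPM in Smo-KO livers, led by Clec4f. The adjusted p of Trem2 was 0.000156 in DESeq2's Wald test. In edgeR it was 0.0182 with no filter, 0.02 without Smo-KO mouse 1 and 0.0457 with the replicate number as a block. DESeq2's adjusted p was also under 0.05 for Il2rb (0.000362), Nkg7 (0.0121), Cd8a (0.0143) and Cd3e (0.0399), and edgeR's with no filter for Il2rb (0.0199). The most abundant markers of the other lists were Clec4g (endothelial), Col3a1 (stellate), Spp1 (cholangiocyte) and Csf3r (neutrophil). Of the endothelial, stellate, cholangiocyte and neutrophil markers, Pecam1 (log2 fold change -0.50) and Col1a1 (-0.36) were lower at an unadjusted p under 0.05. All 5 endothelial markers had lower means in Smo-KO livers (summed 151 ± 13.9 and 127 ± 39.3 CPM). Of the 7 stellate markers 3 had higher and 4 lower means (summed 1041 ± 71.2 and 961 ± 138 CPM), with a median log2 fold change of -0.03. The cholangiocyte markers summed to 148 ± 41.9 and 177 ± 45.5 CPM and the neutrophil markers to 22.5 ± 5.51 and 23.7 ± 3.10 CPM. Ly6g and the kidney genes Umod and Slc12a1 were listed at 0 in every liver. The part of these cells in the results above was not tested.
Many enzymes of this set are known to be richer in periportal hepatocytes. Of 6 other periportal genes 1 was lower at an unadjusted p under 0.05, the mitochondrial aldehyde dehydrogenase Aldh1b1 (log2 fold change -0.64, standard error 0.173, edgeR adjusted p 0.165, 0.0309 in edgeR without Smo-KO mouse 1 and 0.0337 in DESeq2), and of 7 pericentral genes none. The periportal genes summed to 2375 ± 524 CPM in control and 2133 ± 350 CPM in Smo-KO livers, and the pericentral genes to 5251 ± 942 and 5740 ± 317 CPM.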

How the data were processed

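The authors deposited raw read counts, 1 list of gene symbols and whole numbers per liver, without normalization. The submitters' processing notes name fastp, STAR 2.7.5, featureCounts 2.0.1 and the build GRCm38, while the lists end in lines of the form htseq-count writes. The annotation release and strand setting are not given in the sources used here. Lines naming no gene (7.56% to 9.68% of reads on no feature, 2.45% to 2.61% on more than 1 gene) were left out.

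Differences were tested with edgeR 4.0.16 under R 4.3.3, by its quasi-likelihood F-test with vector as the only term, after TMM scaling and its own filter on low counts, with Benjamini-Hochberg adjustment over 12977 genes; standard errors follow from the F statistic. DESeq2 1.42.0 was an alternative, beside RLE scaling, other filters, the replicate number as a block and each mouse left out. CPM use TMM-scaled library sizes; 3 reads are 0.297 to 0.366 CPM, and depth describes counting error only. Exon lengths and overlaps are from GENCODE M21, gene positions and promoters from RefSeq (GRCm38.p6); 2 listed symbols were matched by synonym. Single values used exact permutation tests over 70 assignments of mice. No 2 libraries of a group agreed within sampling noise (chi-square per degree of freedom 8.17 to 18.5). Mice were taken as separate samples from their titles, and p-values measure only the spread between these samples. Only the main edgeR fit was tested on simulated counts. Values of every mouse are given for Smo, for members with an unadjusted p under 0.05 or groups that do not overlap, and for the member with the most reads per kb in each group. Of other lists, the 2 genes with the smallest p and the markers with an unadjusted p under 0.05 are named, most of them without the value of every mouse. Slc43a1, Pcca and the members given by their means were named beyond this rule, after values were seen, and promoters were shown only where the table had an entry. The values of 1 member are not reported here. The members and lists were chosen with earlier results of these data known. Figures were drawn with matplotlib 3.10.9.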

Additional observations from a re-analysis of the deposited data

Results flagged for a closer look

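In 5 of 108 groups of 4 mice examined, a single mouse stood well apart from its group. About 5.4 such groups would arise by chance, at 1 in 20. Otc was 452 CPM in control mouse 2, against 369 to 383 CPM in the other control mice. Amdhd1 was 89.5 CPM in Smo-KO mouse 3, against 146 to 156 CPM. Ivd, the isovaleryl-CoA dehydrogenase of leucine breakdown, was 169 CPM in control mouse 1, against 141 to 142 CPM. Hibch, a hydrolase of valine breakdown, was 72.8 CPM in control mouse 3, against 54.9 to 57.5 CPM. Slc1a2 was 72.7 CPM in control mouse 3, against 135 to 142 CPM.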

How the results depend on the processing

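No member had an adjusted p under 0.05 under any alternative; the lowest was 0.0848, for Gpt2 without Smo-KO mouse 1. Among the genes named by rule, the log2 fold change turned sign only for Hpd and Haao, both near 0. That of Hpd, below 0 in the fit reported, was 0.005 with RLE scaling, 0.0001 with no filter, 0.0035 with at least 10 reads in every liver, 0.0049 with DESeq2 and 0.0176 with the replicate block, and ran from -0.0939 to 0.1619 when 1 mouse was left out. That of Haao ran from -0.0346 to 0.1249 when 1 mouse was left out. With RLE scaling or DESeq2, 4 members had groups that did not overlap, against 7.15% of all genes under either setting. With no filter, 10 members had an unadjusted p under 0.05 (11.4% of all genes; Gls2 and Glud1 beside the 8). Gls2, Glud1, Hal, Sdsl, Kmo, Bckdha and Mccc1 were under 0.05 only in the settings named for each, in which from 10.2% to 17.8% of all genes were. Over all genes, the number with an adjusted p under 0.05 was 0, and 61 with no filter, 163 with DESeq2's Wald test and 8 with the replicate number as a block; leaving out 1 mouse gave from 0 to 78, the highest without Smo-KO mouse 1. The fits without 1 mouse gave from 5 (without Smo-KO mouse 3) to 10 members with an unadjusted p under 0.05 (9.5% of all genes without Smo-KO mouse 3, and 12.1% without control mouse 2, which gave the 10), from 4 to 8 whose groups did not overlap (8 without Smo-KO mouse 1, where 16.0% of all genes did not overlap, against 7.37% with all mice) and medians from -0.12 to 0.00. The replicate numbers were not taken to pair the mice. Same-numbered livers correlated at 0.104, 0.187, 0.0611 and 0.113, differently numbered ones from -0.205 to 0.157, and control mice 2, 3 and 4 correlated best with the mouse of their own number while control mouse 1 did so with Smo-KO mouse 4. With the block, 10 members had an unadjusted p under 0.05 (16.3% of all genes; Gls2 and Hal beside the 8), and the adjusted p of Trem2 was 0.0457. The cause of these changes was not tested.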
